A study of Mus musculus with 3 samples.

Results

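The ubiquitin-specific proteases, encoded by the Usp genes, were examined for contact with the splicing regulator Tra2β in the adult mouse testis. Members were the autosomal protein-coding genes of the GENCODE vM39 annotation with a symbol starting with Usp and a digit, which gave 50 of 20621 autosomal protein-coding genes. X-linked Usp genes were not analysed here. One member chosen by its symbol, Usp6nl, is a Rab GTPase-activating protein and not a protease.

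RNA contacts of endogenous Tra2β had been recovered by iCLIP from testes of adult wild type mice. The paper states that the testes were minced to release germ cells before irradiation. In iCLIP, ultraviolet light links a protein to RNA and the end of each cDNA marks the linked nucleotide. The samples formed 1 group of 3 biological replicates, all immunoprecipitated with a polyclonal anti-Tra2b antibody from mixed cell types. Deposited values were counts of unique cDNAs per nucleotide and strand, and each cDNA is called a crosslink below. No input, control antibody or knockout library was analysed here, so each test compared regions of the same gene within 1 library.

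Ubiquitin is a small protein that marks other proteins for breakdown, transport or altered activity, and the ubiquitin-specific proteases remove it through a shared cysteine protease fold. They form the largest family of deubiquitinating enzymes. In the testis, removal of ubiquitin from histones, from DNA repair proteins and from membrane cargo takes part in meiosis, in the exchange of histones for protamines and in the making of the acrosome. Tra2β is an SR-like protein that binds purine-rich RNA containing GAA and acts on exon inclusion.

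The libraries held 348033, 619571 and 488719 crosslinks, of which 221499, 302148 and 339643 fell in exons or introns of the canonical transcripts of autosomal protein-coding genes. CPM below is the crosslinks of a gene, over exons and introns together, in a library scaled to 1000000 of the latter. A count of 0 allows up to 13.5, 9.93 and 8.83 CPM in replicates 1, 2 and 3, counting error only. Of 12 germ cell markers, 12 had crosslinks in every library, with a summed level between 7302 and 7508 CPM. Much of that sum came from Spag16, with 666, 1734 and 748 crosslinks. Its mean was 3649 ± 1854 CPM (SD, n = 3), and its mean exonic share was 3.74%. Sertoli cell markers summed to 168 to 209 CPM, Leydig cell markers to 149 to 181 CPM and peritubular myoid cell markers to 36.1 to 47.1 CPM, while all 3 liver markers were at 0. The sums cover 12 germ cell, 5 Sertoli, 5 Leydig and 3 myoid cell markers. Per marker, the median levels were 316, 21.2, 29.4 and 11.8 CPM in that order. Replicate 2 had the lowest share of exonic crosslinks and replicate 3 the highest. Over all other protein-coding genes that share was 42.8%, 26.8% and 55.5% in replicates 1, 2 and 3. RNA levels were not measured in these libraries, so more RNA and more binding per RNA cannot be told apart in any level below.

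Crosslinks were found in 45 of the 50 Usp genes, and in every library in 42 (84%), against 51.7% of all other genes. By mean CPM, 18 Usp genes (36%) lay among the top 10% of all genes, and by exonic crosslinks per kb of exon 17 did (34%). The median Usp gene had 58.7 CPM and the median other gene 7.24 CPM. Usp genes are longer than most, with a median of 4608.5 exonic and 43208 intronic nt against 2959 and 13238 nt. Scaled to exon length, the medians were 5.52 and 0.749 CPM per kb of exon. Together the Usp genes took 0.698%, 0.483% and 0.763% of the coding gene crosslinks.

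**Figure D1:**
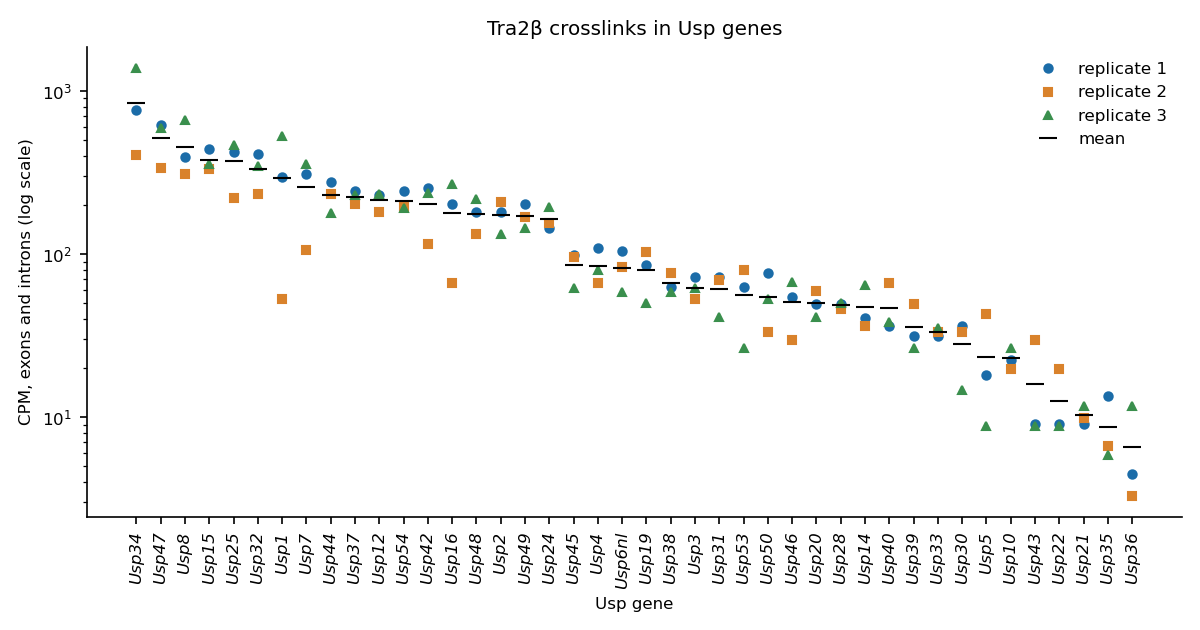
Crosslinks in the 42 Usp genes that had crosslinks in every library, ordered by mean level. The y axis is CPM over exons and introns on a log scale, symbols are the 3 replicates and dashes their mean. Usp34 lies highest in replicates 1 to 3, and Usp1, Usp7 and Usp16 have their replicate 2 value well under the others.

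Usp34, a very large enzyme known for its action on axin in Wnt signalling, led the family with 170, 122 and 467 crosslinks. That was 767, 404 and 1375 CPM, a mean of 849 ± 491 (SD, n = 3) and rank 85 among all genes. Replicate 3 was the highest and replicate 2 the lowest, and the rank was 189 without replicate 3. Usp47, which acts on the base excision repair polymerase, followed with 136, 102 and 202 crosslinks (515 ± 154 CPM, rank 259). Usp8 had 87, 93 and 224 crosslinks (453 ± 184 CPM, rank 346). Usp8 frees endosomal receptors from ubiquitin and is found at the developing acrosome. Usp34 was above both in each library, while Usp47 was above Usp8 in replicates 1 and 2 and below it in replicate 3.

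Below them came Usp15, a regulator of TGF-β signalling, with 98, 100 and 121 crosslinks, and Usp25, with 94, 67 and 159. Usp32, a membrane-anchored enzyme, had 91, 71 and 117. These 3 genes had mean levels of 377, 371 and 330 CPM, and their order changed between libraries. Usp1, which removes ubiquitin from FANCD2 and PCNA in DNA repair, was the least even, with 66, 16 and 181 crosslinks or 298, 53.0 and 533 CPM. Usp7, known for its action on Mdm2 and p53, had 69, 32 and 121 crosslinks. Usp44, a histone H2B protease, had 61, 71 and 61, and Usp37, which acts on cyclin A, had 54, 61 and 78.

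Per kb of exon the order was another. Usp8 came first with 86.8 ± 45.2 exonic CPM per kb of exon (SD, n = 3), ahead of Usp1 with 76.5 ± 64.9, Usp47 with 74.1 ± 41.2 and Usp34 with 47.0 ± 35.2. Usp16, a histone H2A protease, followed with 46.3 ± 32.0. The order changed between libraries, with Usp47 first in replicate 1, Usp8 in replicate 2 and Usp1 in replicate 3. Usp15 fell to place 13 among the Usp genes on this scale with 21.4 ± 9.61, and 232 of its 319 crosslinks were intronic.

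At the other end, Usp29, an imprinted gene, had 1, 4 and 0 crosslinks, and all 5 were intronic. Usp13 had 0, 3 and 0, and Usp18, which removes the ubiquitin-like ISG15, had 0, 1 and 0. These counts were under or close to the limit that a count of 0 allows. Usp17la, Usp17lb, Usp17lc, Usp17ld and Usp17le had 0 crosslinks in every library. They are close copies of one another, the handling of reads that map to several places was not given in the sources used here, and their 0 is uncertain.

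Exons held a larger part of the crosslinks in Usp genes than in other genes in each library. The exonic share was 57.2%, 40.6% and 70.2% in replicates 1, 2 and 3 (56.0% ± 14.8, SD, n = 3), against 42.8%, 26.8% and 55.5% in all other genes (41.7% ± 14.3). Exons make up 9.10% of the canonical bases of Usp genes and 7.85% of those of other genes. Per base, exons had 13.3, 6.82 and 23.5 times the crosslinks of introns in Usp genes, and 8.80, 4.31 and 14.6 times in the others. The family was thus higher in each of 3 libraries, while the libraries differed more among themselves than the gene sets did. Without replicate 2 the mean shares were 63.7% and 49.1%. With 3 libraries an exact sign-flip test could not go below p = 0.25, and none was run. Within exons, coding sequence took 82.6%, 83.6% and 85.3% of the Usp crosslinks, against 75.9%, 81.5% and 77.7% elsewhere, and it makes up 56.0% of the exonic bases of Usp genes and 46.7% of those of other genes.

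Each gene with at least 20 crosslinks was tested within each library for exonic against intronic crosslinks, with an exact binomial test, lengths as the expected shares and Benjamini-Hochberg adjustment over 6752 genes. A gene was called where each of the 3 libraries gave an adjusted p under 0.05 with the same sign. Over all genes tested, exons were called above introns in 36.8% and below them in 0.0296%. Of the 50 Usp genes, 37 could be tested, 26 (70.3%) had exons above introns and 0 below, and 11 had no call. The median log2 fold was 2.95 in Usp genes and 2.49 in others, and the fold was above 0 in all 3 libraries in 35 of the 37 Usp genes, against 86.6% of the others. No Usp gene had a fold below 0 in every library. The 13 Usp genes not tested ranged from the 5 Usp17l genes at 0 to Usp43 with 14 crosslinks in all, and the lowest tested were Usp5 and Usp10 with 20 each.

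The share called rose with the crosslinks of a gene, and the tested Usp genes had a median of 72 crosslinks against 61 in the others. With 100 or more crosslinks, 18 of 18 Usp genes were called, against 66.5% of 2181 other genes. With 50 to 99 crosslinks it was 3 of 7 Usp genes (42.9%) against 37.6%, and with 20 to 49 it was 5 of 12 (41.7%) against 13.1%. Without replicate 2, the library with the lowest exonic share, 63.1% of the other genes were called, and the Usp count was 25 of 32 (78.1%). These are descriptions, and the share among Usp genes was not tested against that of other genes.

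**Figure D2:**
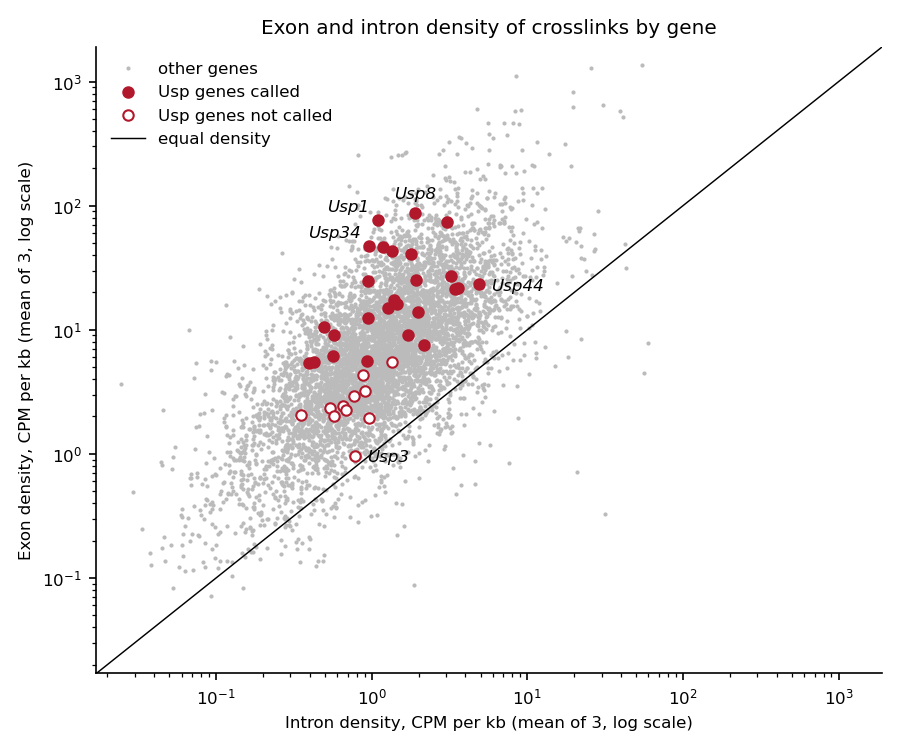
Exonic (y axis) and intronic (x axis) CPM per kb, mean of 3 libraries, both on log scales, for genes with at least 20 crosslinks. Grey points are other genes, filled red points the 26 Usp genes called and open red points the 11 not called. Usp3 lies next to the line of equal density, and 164 genes with a mean of 0 on an axis, none of them a Usp gene, were left out.

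Usp8 had the highest mean log2 fold of the 10 leading genes, with 65, 66 and 196 exonic against 22, 27 and 28 intronic crosslinks. Its log2 fold per base was 5.06, 4.79 and 6.30, a mean of 5.38 ± 0.81 (SD, n = 3, largest adjusted p = 1.84e-48 by the exact binomial test). Usp1 had 65, 12 and 178 exonic and 1, 4 and 3 intronic crosslinks, a log2 fold of 5.32 ± 2.36. The intronic part of Usp1 was near 0 throughout, and the size of its fold depends on those few counts. Usp34 had 135, 64 and 417 exonic and 35, 58 and 50 intronic crosslinks, a log2 fold of 5.27 ± 1.47. Its intronic count stayed between 35 and 58, and its exonic count was lowest in replicate 2 and highest in replicate 3.

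Usp15 and Usp44 were called with lower log2 folds, and Usp15 had more intronic than exonic crosslinks in each library. Usp15 had 26, 15 and 46 exonic and 72, 85 and 75 intronic crosslinks (log2 fold 2.56 ± 0.89), and Usp44 had 29, 40 and 37 exonic and 32, 31 and 24 intronic crosslinks (2.31 ± 0.38). Usp3, a histone H2A protease, showed no such contrast. It had 1, 0 and 4 exonic and 15, 16 and 17 intronic crosslinks, and its log2 fold of 0.24 ± 1.54 changed sign between libraries. Usp30, a mitochondrial enzyme, was the other gene without the same sign throughout, with 4, 1 and 2 exonic and 4, 9 and 3 intronic crosslinks.

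By role, and beside the 36.8% called over all genes, 7 of the 8 tested Usp genes that act on histones or chromatin had exons above introns, out of 11 listed. They were Usp7, Usp44, Usp12, Usp42, Usp16, Usp49 and Usp46, and Usp3 had no call. All of those called except Usp46 had 100 or more crosslinks, a depth at which 66.5% of other genes were called. In this group Usp42 had 45, 22 and 56 exonic and 11, 13 and 24 intronic crosslinks, and Usp49, an H2B protease, had 18, 24 and 16 exonic and 27, 27 and 33 intronic crosslinks. Usp22, the protease of the SAGA coactivator, Usp21 and the nucleolar Usp36 had 11, 9 and 6 crosslinks in all and were not tested. In DNA repair and replication, 6 of 7 were called, namely Usp47, Usp1, Usp7, Usp37, Usp48 and Usp45. All of these except Usp45 also had 100 or more crosslinks. Usp28 had 3, 5 and 4 exonic and 8, 9 and 13 intronic crosslinks and no call.

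Outside the role lists, Usp34, Usp25, Usp24, Usp54, Usp50 and Usp40 were also called, and Usp38, Usp31 and Usp53 were not.

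All 3 of the Usp genes tied to the spliceosome were called, beside 36.8% over all genes and 70.3% of the tested Usp genes. They were Usp15, Usp4 with 15, 8 and 15 exonic and 9, 12 and 12 intronic crosslinks, and Usp39, a splicing factor with 6, 9 and 5 exonic and 1, 6 and 4 intronic crosslinks. Usp15, Usp4 and Usp39 had 319, 71 and 31 crosslinks in all, depths at which 66.5%, 37.6% and 13.1% of other genes were called. Of the 7 Usp genes of endosomes and membrane traffic, 3 were called (Usp8, Usp32 and Usp2). The proteases Usp20, Usp33 and Usp10 and the GTPase-activating protein Usp6nl were not. Usp2, which is needed for normal male fertility in mice, had 22, 25 and 25 exonic and 18, 38 and 20 intronic crosslinks. Of the enzymes that recycle ubiquitin at or near the proteasome, Usp14 was called with 5, 7 and 14 exonic crosslinks and Usp5 was not with 1, 9 and 2. Usp19, anchored in the endoplasmic reticulum, was called with 18, 26 and 16 exonic and 1, 5 and 1 intronic crosslinks.

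Among deubiquitinases of other families, with few genes in each beside the 36.8% called over all genes, 5 of 8 tested genes of the OTU family were called, 1 of 3 of the UCH family, 1 of 3 of the Josephin family, 2 of 6 of the JAMM metalloproteases and 0 of 5 of the MINDY and ZUFSP families. Cyld, Pan2 and Uspl1, which carry a domain of the Usp type under another symbol, gave 1 of 3 (Uspl1). Of the proteins that bind Usp enzymes, 3 of 7 tested were called. One of these was Wdr48, the partner of Usp1, Usp12 and Usp46, with 35, 14 and 69 exonic crosslinks.

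Exons were next compared with the other exons of the same gene, in genes with at least 20 exonic crosslinks. Over all 57817 exons tested, 0.218% were called above and 0.349% below. Of the 914 Usp exons, 606 in 27 genes were tested, 1 (0.165%) was above, 2 were below and 603 had no call. The median log2 fold of a tested exon over the rest of its gene was 0.888 in Usp genes and 1.08 in others, not 0. Depth limited this comparison, since 101 of the 606 exons had 0 crosslinks, 426 had 1 to 9 and 79 had 10 or more. In single libraries 3, 8 and 14 Usp exons passed above in replicates 1, 2 and 3, where 0.932%, 2.05% and 2.75% of all exons did. Below the rest were 4, 8 and 13 Usp exons, where 0.702%, 1.03% and 1.76% of all exons were.

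The exon called above was exon 15 of the 80 exons of Usp34, at chr11:23313791-23314512 on the + strand of GRCm39. It is 722 nt long, wholly coding, and part of all 3 annotated transcripts that span it. It held 23, 18 and 68 crosslinks in replicates 1, 2 and 3, and the other exons of the gene held 112, 46 and 349 in 13804 nt. The share of the exonic crosslinks of Usp34 that fell in it was 17.0%, 28.1% and 16.3%. The log2 fold per base over the rest was 2.00, 2.93 and 1.91, a mean of 2.28 ± 0.57 (SD, n = 3), with adjusted p = 5.46e-05, 4.16e-07 and 3.74e-15 by the exact binomial test. On coding bases alone with each crosslinked position counted once, which was tried after seeing the data, the log2 fold was 1.68 and the call was lost (largest adjusted p = 0.0508 by the same test).

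Exon 15 is also the longest internal exon of Usp34 and the one with the most GAA trinucleotides, 41 in all or 5.68 per 100 nt, which ranked 17 of the 631 Usp exons of 100 nt or more. Purines made up 59.7% of it. Crosslinks within 10 nt of a GAA were 65.2%, 88.9% and 75.0%, where 61.1% of its bases are that close. In replicate 2, 9 of the 18 crosslinks lay at 191 to 209 nt from the 5′ end of the exon, a stretch with 1 and 2 crosslinks in replicates 1 and 3. In replicates 1 and 3 the densest stretch was at 229 to 285 nt, with 9 of 23 and 34 of 68 crosslinks, and replicate 2 had 2 there. The libraries thus shared the exon, with peaks at different places in it.

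The 30 nt with the most crosslinks over the libraries lie at chr11:23314032-23314061 and hold 5, 1 and 25 crosslinks, 28.4% of the exon. The sequence is shown because it carries the largest group of crosslinks in the family, with each GAA in capitals, from 5′ to 3′ on the strand of the RNA.
Usp34 exon 15: atGAAGAAGAAGAAgatGAAGAAGAAgatg
It holds 7 GAA. Of all 30 nt windows in Usp exons, 45.5% hold at least 1 GAA and 13.3% hold more than 1.

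**Figure D3:**
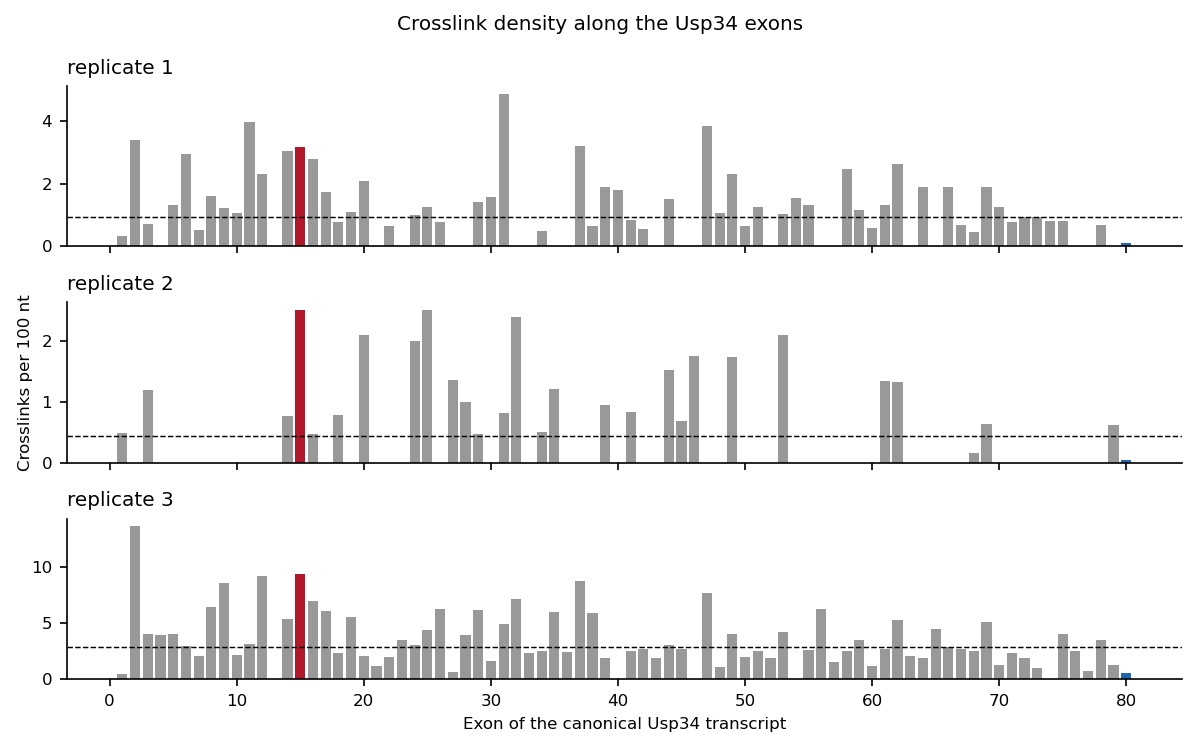
Crosslinks per 100 nt (y axis) in each of the 80 exons of the canonical Usp34 transcript (x axis), 1 panel for each replicate. Exon 15, called above the rest, is red, the last exon, called below, is blue, and the dashed line is the density over all Usp34 exons. Shorter exons reach higher bars than exon 15 in every panel, such as exon 2 in replicates 1 and 3 and exon 25 in replicate 2, and exon 15 lies well over the dashed line in each panel.

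**Figure D4:**
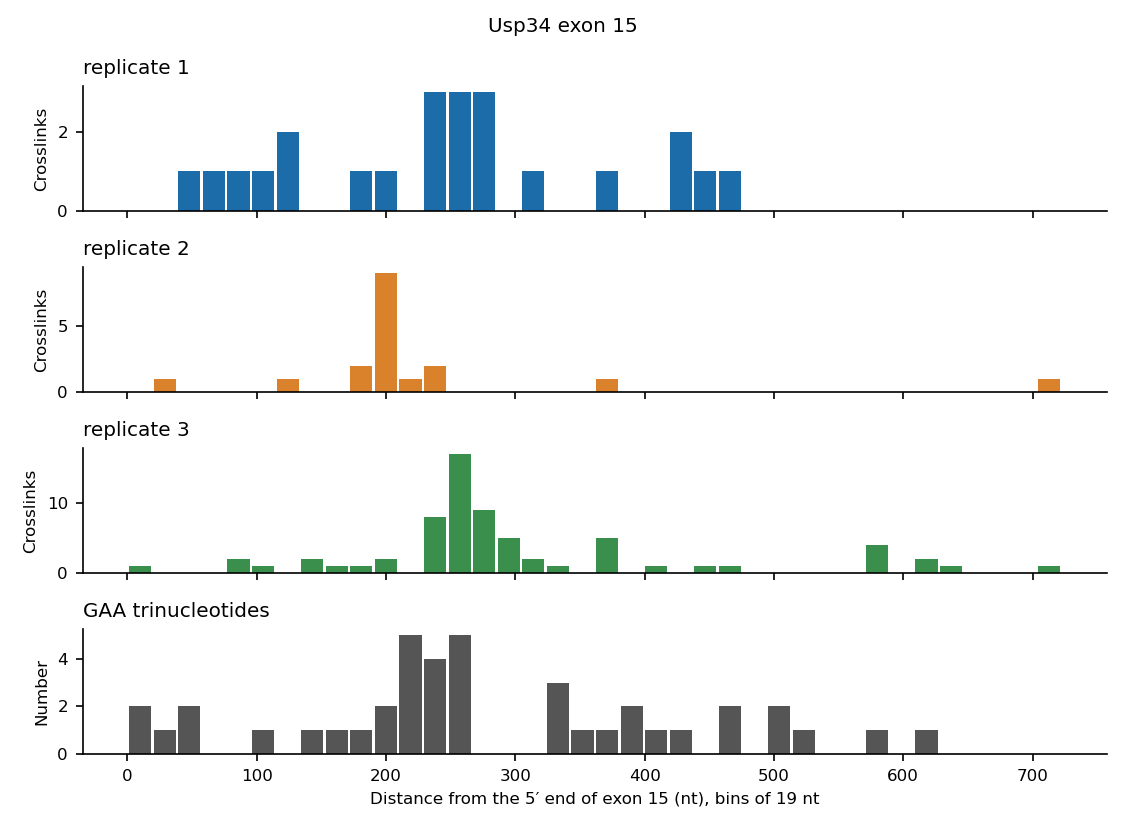
Crosslinks of replicates 1 to 3 (upper panels) and number of GAA trinucleotides (lowest panel) in bins of 19 nt along the 722 nt of Usp34 exon 15. Replicate 2 peaks at 191 to 209 nt and replicates 1 and 3 peak within 229 to 285 nt. The bins with the most GAA, 5 each, are at 210 to 228 nt and at 248 to 266 nt.

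Both Usp exons called below the rest were last exons made mostly of 3′ UTR. Exon 80 of Usp34 (3800 nt) had 4, 2 and 20 crosslinks, a log2 fold of -3.10 ± 0.30 (largest adjusted p = 0.000277 by the exact binomial test). Exon 9 of Usp12 (2972 nt) had 5, 2 and 13, a log2 fold of -3.20 ± 0.69 (largest adjusted p = 6.54e-05 by the same test). On coding bases alone neither was called (largest adjusted p = 1 for both by that test), with log2 folds of -2.21 ± 0.69 for Usp34 and -1.31 ± 0.75 for Usp12. Of the 27 last exons tested, 20 (74.1%) lay below the rest of their gene in every library, against 55.1% of the last exons of other genes. The 3′ UTR took 13.2%, 9.63% and 11.4% of the exonic Usp crosslinks and makes up 37.1% of the exonic bases. In other genes it took 19.4%, 14.0% and 17.6% and makes up 44.9% of the exonic bases.

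Among Usp exons with a total of 10 or more crosslinks and none of the libraries at 0, the 5 with the highest mean log2 fold were Usp34 exon 15 and 4 that the exact binomial test did not call in all 3 libraries. Exon 4 of Usp44 had 7, 1 and 5 crosslinks (2.63 ± 1.60), and only 1 of the 40 exonic crosslinks of the gene in replicate 2. Exon 3 of Usp12 had 7, 5 and 6 (2.43 ± 0.78). On internal exons only its log2 fold was 0.67 ± 0.96 and not called. The last exon, left out there, has 2972 of the 4330 exonic nt of Usp12. Exon 12 of Usp25 had 5, 1 and 8 (2.22 ± 0.35), and exon 6 of Usp8, of 43 nt, had 4, 2 and 6 (2.14 ± 0.59). The mean log2 folds of these 4 exons lay around the 2.28 of Usp34 exon 15, on at most 18 crosslinks each. On coding bases alone, tried after seeing the data, none of the 4 was called. The folds there were 2.00 for Usp44, 0.80 for Usp12, 1.73 for Usp25 and 2.05 for Usp8. Usp34 exon 15 had 1.91 there and was called. By edgeR's quasi-likelihood test over the libraries, which called 2.13% of all exons above, the exons of Usp44 (adjusted p = 0.00391), Usp12 (0.00964) and Usp25 (0.0320) were called and that of Usp8 was not.

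The densest 30 nt of these exons are shown to set beside the Usp34 sequence, with GAA in capitals. They lie at chr10:93688578-93688607 (+ strand), chr5:146700033-146700062 (- strand), chr16:76872165-76872194 (+) and chr2:126573981-126574010 (+) of GRCm39.
Usp44 exon 4: gtaGAAagttttcgtcaaaatcagttgtat
Usp12 exon 3: gtcggcgtgatcccgcccaaGAAgttcatc
Usp25 exon 12: gcacaGAAatagaGAAataacaaGAAttaa
Usp8 exon 6: attaacggcgaGAAgagtGAAggagctgca
They hold 1, 1, 3 and 2 GAA, and 8 of 13, 13 of 18, 8 of 14 and 10 of 12 crosslinks of their exon. None has the run of GAA seen in Usp34, and the windows of Usp44 and Usp12 are 53.3% and 46.7% purine.

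Usp12 and Usp46 are close relatives that act on histones together with Wdr48 and Wdr20. Their exon 3 was set side by side after its values had been seen, because it is 214 nt long in both and 170 of its bases (79.4%) are identical. Usp46 exon 3 had 3, 2 and 3 of the 7, 3 and 11 exonic crosslinks of its gene, a log2 fold of 4.05 ± 1.01 that was not called (largest adjusted p = 0.175 by the exact binomial test). The last exon of Usp46 has 3412 of its 4583 exonic nt and held 3, 1 and 4 crosslinks. By edgeR's quasi-likelihood test exon 3 of Usp46 was called above the rest (log2 fold 3.63, adjusted p = 0.0145). In Usp12, 6, 5 and 2 of the exon's 7, 5 and 6 crosslinks lay at 163 to 192 nt from its 5′ end, which was chosen as its densest 30 nt. At the same distance Usp46 had 2, 1 and 1, which was 4 of 8 crosslinks in 14.0% of the exon. The Usp46 stretch, at chr5:74192987-74193016 on the - strand, is shown for comparison with that of Usp12 above.
Usp46 exon 3: gttggcgtcatcccaccaaaGAAgttcatt
Of its 30 bases 25 are the same as in Usp12, with no identical run longer than 11. How reads shared by both genes were treated was not given in the sources used here, and its part in this likeness was not tested.

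**Figure D5:**
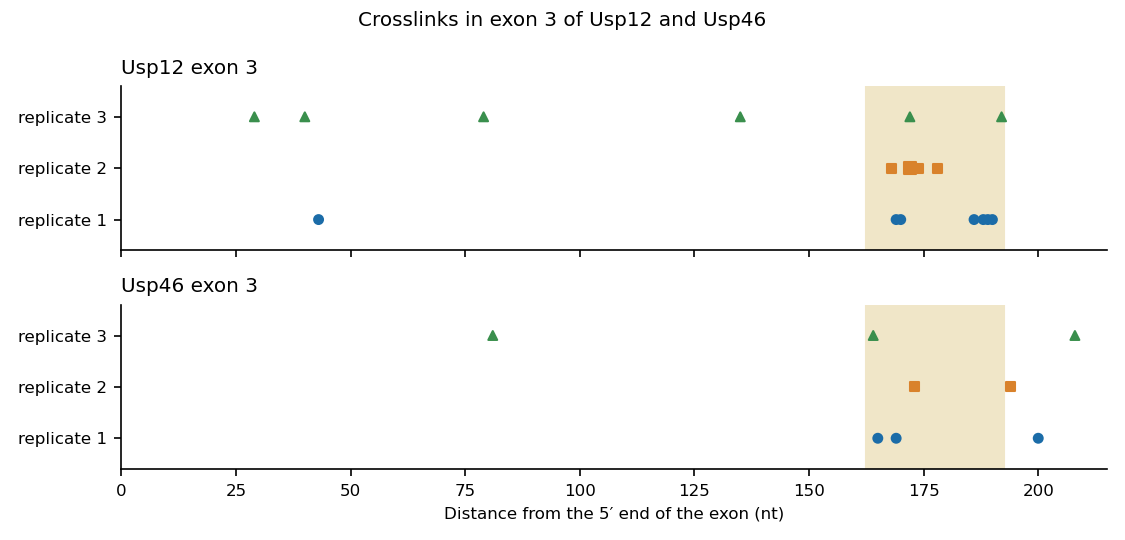
Position of each crosslink in exon 3 of Usp12 (upper panel, 18 crosslinks) and Usp46 (lower panel, 8 crosslinks), in nt from the 5′ end of the exon (x axis), with 1 line per replicate and marker area in proportion to the count. The shaded band is 163 to 192 nt, which holds 13 crosslinks of Usp12 and 4 of Usp46.

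In 2 coding exons replicate 2 stood apart from the others. Exon 11 of Usp8, a coding exon of 558 nt, had 24 of the 66 exonic crosslinks of its gene in replicate 2 (log2 fold 1.90), against 12 of 65 and 32 of 196 in replicates 1 and 3 (0.60 and 0.36). Exon 7 of Usp2 had 7 crosslinks in replicate 2, 0 in replicate 1 and 1 in replicate 3. Neither was called by the exact binomial test, and edgeR called Usp2 exon 7 above the rest (adjusted p = 0.0388).

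The last exon of Usp44, with 3201 of the 5338 exonic nt of the gene, had 6 of 29, 25 of 40 and 6 of 37 exonic crosslinks. Replicate 2 lay near the share given by length, and replicates 1 and 3 lay below it (log2 fold -2.44, 0.14 and -2.86). The exact binomial test in 3 libraries did not call it, and edgeR called it below (adjusted p = 0.0256). By edgeR 12 of the 606 Usp exons were below the rest and 7 above, where 1.75% of all exons were below.

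For introns, 0.378% of the 73568 introns tested were called above and 0.164% below the other introns of their gene. Of 640 Usp introns tested in 29 genes, 0 were called in either direction by the exact binomial test, and 2 had an unadjusted p under 0.05 above the rest in all 3 libraries, as 1.22% of all introns did. These were intron 2 of Usp37, with 10, 11 and 6 of the 33, 38 and 34 intronic crosslinks in 4102 of 63116 nt, and intron 1 of Usp44, with 23, 26 and 19 of 32, 31 and 24 in 11719 of 21822 nt. Intron 2 of Usp37 missed the call through replicate 3 alone (adjusted p = 0.00474, 0.00132 and 0.421 by the same test).

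Across the 50 Usp genes, total crosslinks were ordered alike in each pair of libraries, with Spearman's rho of 0.936 for replicates 1 and 2, 0.971 for 1 and 3 and 0.880 for 2 and 3. Genes are not independent replicates and share their length and RNA level in all libraries, so these values are a description. Single nucleotides were rarely shared. Of 5356 crosslinked positions in Usp genes, 8 were common to replicates 1 and 2, 55 to 1 and 3, 23 to 2 and 3, and 0 to all 3. In other genes 699 of 811738 positions (0.0861%) were common to all 3.

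Exonic crosslinks of Usp genes lay within 10 nt of a GAA more often than the bases of the same exons, by a ratio of 1.25, 1.55 and 1.26 in replicates 1, 2 and 3 (1.36 ± 0.17, SD, n = 3). In other genes the ratio was 1.41, 1.60 and 1.42 (1.48 ± 0.11). The Usp ratio was the lower in each of the 3 libraries, and the difference was not tested. Its parts differed otherwise. Crosslinks that close to a GAA were 46.8%, 57.9% and 46.9% in Usp exons and 48.0%, 54.6% and 48.2% in others. The Usp share was thus the higher in replicate 2. Of the exonic bases, 37.3% were that close in Usp genes and 34.0% in other genes. Among the densest 30 nt windows of the 10 Usp genes with the highest CPM, 7 held a GAA, as 45.5% of all 30 nt windows in Usp exons do. Those of Usp47, Usp25 and Usp32 held none. Some of these windows rest on few crosslinks and miss a library, such as Usp7 with 0, 0 and 7 and Usp32 with 3, 0 and 2.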

How the data were processed

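The authors processed 3 iCLIP libraries with the iMAPS pipeline. The submitters' processing notes name Trim Galore 0.6.7, Bowtie 1.3.1, STAR 2.7.9a, UMI-tools 1.1.2 and build mm39. The deposited values were raw counts of unique cDNAs per nucleotide and strand, not normalised and not pooled. All 49 sequences in the files fitted GRCm39. Here, crosslinks were counted by strand in exons and introns of each gene's Ensembl_canonical transcript (GENCODE vM39). Tests were two-sided exact binomial tests per library with length as the expected share, for genes with at least 20 crosslinks over the libraries (exonic or intronic ones for tests of exons or introns), adjusted over all autosomal protein-coding genes, with a call at adjusted p under 0.05 in all 3 libraries. Log2 folds used a pseudocount of 0.5. Because p-values came from counts in 1 library, they cover counting error, and the need for 3 libraries stands for replicate spread. Scripts were tested on simulated data. Named by rule were the 10 Usp genes of highest CPM, genes with called exons or introns, and the 5 exons of highest fold with at least 10 crosslinks. The rule also covered Usp genes at 0 in every library and up to 4 members of each list. Other genes, list members, exons and introns named above lie outside that rule and were picked with their values known. Members and lists were chosen with earlier results of these data known. edgeR 4.0.16 (R 4.3.3) was an alternative on the same counts. Python 3.11.15 and SciPy 1.17.1 were used. Sequences came from GRCm39.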

Additional observations from a re-analysis of the deposited data

How the results depend on the processing

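No paired analysis was possible because the labels give 1 group, so that no replicate numbers are shared between groups. Every test was made within a library. The exonic share of Usp genes and their count with exons above introns (24 to 28) moved by less than the replicate SD or 1.5 times in the alternatives run for them: leaving out each library, counting each position once, leaving out overlapping bases and, for the count, no minimum of crosslinks. The number of Usp exons above the rest of their gene was 1 to 2 on leaving out 1 library and 7 by edgeR's quasi-likelihood test over libraries, which called 2.13% of all exons above. It was 0 on coding bases with each position counted once, settings chosen after seeing the data, where Usp34 exon 15 had a log2 fold of 1.68 and an adjusted p of 0.0508 in its weakest library by the exact binomial test. Its log2 fold was 1.95 to 2.46 on leaving out 1 library, 1.83 on internal exons only and 1.91 on coding bases only, all called. The 7 by edgeR were Usp34 exons 15 and 2, Usp44 exon 4, Usp12 exon 3, Usp46 exon 3, Usp25 exon 12 and Usp2 exon 7. Usp exons below numbered 2 to 5 on leaving out 1 library and 12 by edgeR (1.98%, with 1.75% over all exons). They numbered 0 on internal exons only, which leaves both called exons out, 0 on coding bases only and 0 with each position also counted once. On coding bases the log2 fold was -2.21 for Usp34 exon 80 and -1.31 for Usp12 exon 9, and the cause of the lost calls was not tested. Usp introns above numbered 0 to 1 on leaving out 1 library. The GAA ratio was 1.16 within 30 nt. The percent of other genes with exons above introns ranged from 10.6 with no minimum of crosslinks to 63.1 without replicate 2, and that of tested Usp genes from 48.0 with no minimum to 84.8 without replicate 3 (70.3 as reported). Scaled to all crosslinks of a library, mean CPM was 323 for Usp47, 235 for Usp25, 230.2 for Usp15, 205 for Usp32, 138 for Usp44 and 138 for Usp37. Depth limits the exon tests, with 10 or more crosslinks in 79 of the 606 Usp exons.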
